A study of Homo sapiens with 15 samples.

Results

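RNA from cells of the human ovarian cancer line PEO1 that were sorted as CD90+/CD133- was compared with RNA from PEO1 cells sorted as CD90-/CD133-. The comparison holds 10 of the 15 arrays of the series, 5 for each fraction, and every array of these fractions was used. The remaining 5 arrays, of CD90+/CD133+ cells, enter only as levels beside the others. PEO1 is an established line that was grown in RPMI-1640 with 10% FBS. After trypsin treatment, cells were stained with antibodies to CD90 and CD133 and with the dead-cell dye Sytox-blue and sorted by flow cytometry, with no drug or gene change in either fraction. The fractions were defined by antibody staining, and a single line limits what they can stand for. The paper describes its CD90+ and CD90- subpopulations as sorted and then established, and reports that they also differed in tumour growth and ammonia tolerance. Replicates 1 to 5 of the 2 fractions were treated as pairs, because the labels give same-numbered arrays a shared code and because these arrays deviated together, those of replicate 3 hardly more than arrays of different numbers. The sources used here do not say whether a pair came from 1 culture. Below, CD90+ and CD90- stand for CD90+/CD133- and CD90-/CD133- cells.

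CD90, the product of THY1, is a glycosylphosphatidylinositol-anchored surface protein of fibroblasts, mesenchymal stromal cells and neurons. It has been used to enrich cells with stem-like behaviour in several carcinomas. CD133, the product of PROM1, is a membrane protein used for the same purpose. Ovarian carcinoma cells can hold epithelial features such as keratins and claudins together with mesenchymal ones such as fibrillar matrix and TWIST factors. The metabolic genes that the study followed are set aside here, and the other functions of the cell are described.

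The label check came first. THY1 lay at 795.3, 1221, 878.5, 1048 and 966.0 on CD90+ replicates 1 to 5 and at 67.8, 68.4, 101.3, 95.1 and 57.8 on CD90- replicates 1 to 5. Every CD90+ array was above every CD90- array, in the direction of the sort, and since the sort chose on this protein the difference is a check and no finding. PROM1 was dim, with means of 42.2 and 21.4, and 3 of 5 CD90- arrays were at the floor of 16. Its log2 fold change of 0.98 (standard error 0.40) had an adjusted p of 0.16 from limma, but it passed without replicate 5 (0.56, adjusted p = 0.0102). Values are probe-set intensities on a linear scale, and each gene is represented by its brightest probe set.

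Differences were large in number and mostly modest in size. Of 19775 genes, 2366 (12%) had higher and 2703 (13.7%) lower intensity in CD90+ cells with an adjusted p below 0.05 (limma with the replicate number as a block, Benjamini-Hochberg over all genes). "Rose" and "fell" are used only for genes called in this way, always for CD90+ relative to CD90- cells. Of all called genes, 2322 also differed by more than 1.5-fold, a size that 6.46% of all genes passed upwards and 6.51% downwards whether called or not. Without the replicate block, 1789 genes (9.05%) were higher and 1962 (9.92%) lower. Past 4-fold there were 72 that rose and 83 that fell. The median change over all genes was 0.00 on the log2 scale. In either direction 25.6% of all genes were called, and brighter genes were called more often. Among the 10010 genes of mean intensity 64 or more, 20.7% rose and 22.4% fell. The counts of the gene lists below are to be read beside these shares. Without replicate 2, 1456 genes were higher and 1573 lower, without replicate 4 they were 1435 and 1551, and without replicate 1 the lower genes numbered 1796. Calls that held without the block, without each replicate in turn and in all 5 pairs, with no clearly measured probe set of the gene moving the other way, are called robust below. They came to 10.1% of all genes, 1006 higher (5.09%) and 992 lower (5.02%). In bulk RNA, fewer cells that express a gene and less RNA of it per cell cannot be told apart.

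The control probes differed between the fractions as well. The log2 gap between the 3′ and 5′ probes of GAPDH, which widens where RNA is degraded or copied short, averaged 0.186 (SD 0.0789, n = 5) in CD90+ and 0.0565 (SD 0.0317, n = 5) in CD90- cells. It was wider in CD90+ cells in 5 of 5 pairs, with an exact permutation p of 0.063 over sign changes of the pairs (2-sided), the smallest p that 5 pairs allow. For ACTB the gap was 2.46 (SD 0.56) and 1.84 (SD 0.32), wider in 4 of 5 pairs (exact permutation p = 0.125). Its part in the results below was not tested.

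Among the genes that met the rule for naming, those with the largest rises span several functions. SOX7, a SOX factor of endoderm and endothelium, lay at 1785, 1813, 2037, 2076 and 1268 on CD90+ replicates 1 to 5 and at 72.5, 59.9, 221.3, 80.7 and 106.6 on CD90- replicates 1 to 5. The fractions did not overlap, and the log2 fold change was 4.20 (standard error 0.32). IER3, an early-response gene that NF-kB induces, had 9912, 3346, 4713, 2999 and 4077 in CD90+ and 403.4, 128.8, 445.6, 196.8 and 211.2 in CD90- cells, with replicate 1 the brightest of the CD90+ arrays. ANPEP, the surface aminopeptidase CD13, had 2321, 3507, 2796, 3474 and 2681 in CD90+ and 212.9, 288.2, 371.4, 334.0 and 202.2 in CD90- cells. Here too every CD90+ array exceeded every CD90- array, and the log2 fold change was 3.41 (standard error 0.13, adjusted p = 0.00123). EHF, an epithelial ETS factor, rose by 2.98 (standard error 0.25) on the log2 scale. MTUS1, a microtubule-associated protein, rose by 2.68 (standard error 0.06), FAM20C, a kinase of secreted proteins, by 2.49 (standard error 0.09) and NCEH1, a neutral cholesterol ester hydrolase, by 2.48 (standard error 0.05). The small errors of the last 3 genes reflect changes of nearly the same size in each pair.

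The largest falls among the genes named by rule held matrix and adhesion genes, which are described with their families, and further surface proteins. CEACAM6, a carcinoembryonic antigen family adhesion molecule, lay at 127.7, 118.2, 120.3, 82.0 and 62.7 on CD90+ replicates 1 to 5 and at 1494, 2669, 1276, 2083 and 868.1 on CD90- replicates 1 to 5. The fractions were far apart on every array, and the log2 fold change was -3.98 (standard error 0.24, adjusted p = 0.00200). CNTN1, a neural immunoglobulin-family adhesion molecule, fell by 3.19 (standard error 0.13) on the log2 scale, although both of its replicate 5 arrays were well under the others of their fraction, at 40.9 in CD90+ and 301.3 in CD90- cells. PKIB, an inhibitor of protein kinase A, fell by 3.09 (standard error 0.19), and CADM1, a synaptic and epithelial adhesion molecule, by 2.98 (standard error 0.08). NLGN4X, a neuroligin, LBH, a transcriptional cofactor of limb and heart, EPDR1, an ependymin-related secreted protein, and SLCO4A1, an organic anion transporter, had log2 fold changes of -2.61, -2.56, -2.40 and -2.30. IVL, involucrin of the cornified envelope, had -2.74, whereas FLG, filaggrin of the same structure, rose.

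**Figure D1:**
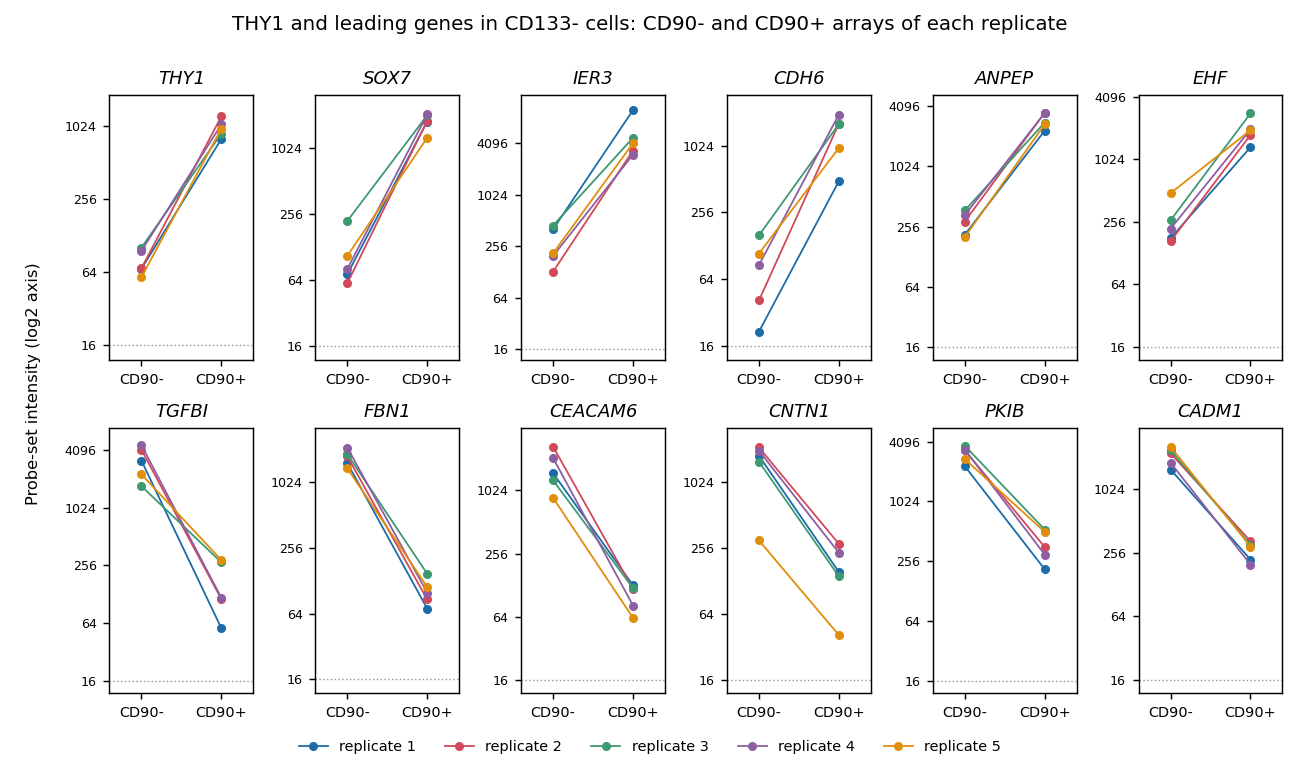
Probe-set intensity (log2 axis) of THY1 and of 11 leading genes in CD90-/CD133- and CD90+/CD133- cells, with one point per array and a line joining arrays of the same replicate number; the dotted line is the floor of 16. The 5 lines of each panel run the same way, and only in CNTN1 does replicate 5 sit far under the other replicates of both fractions.

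The functional list with the largest share of falls was that of interferon-induced and antigen presentation genes. Interferons bind surface receptors and activate STAT and IRF transcription factors, which bind GAAA-rich elements in the promoters of antiviral genes and of genes that load peptides on MHC molecules. Promoter windows of RefSeq (GRCh38.p14, 250 bases before to 50 after the start of the gene, on the gene's strand) were searched on both strands for GAAA, any 2 bases and GAAA, the core of the interferon-stimulated response element. Windows of 3 genes that fell are shown with that of B2M, the light chain of class I MHC, which was not called (adjusted p = 0.0604). Capitals mark the matches, which can overlap, and all 4 windows hold at least 1. IFITM3 (chr11:320811-321110, minus strand) encodes an antiviral membrane protein, IFI6 (chr1:27672143-27672442, minus strand) an antiviral protein of the endoplasmic reticulum, ISG15 (chr1:1013247-1013546, plus strand) a ubiquitin-like modifier, and the B2M window is at chr15:44711267-44711566 on the plus strand.
IFITM3: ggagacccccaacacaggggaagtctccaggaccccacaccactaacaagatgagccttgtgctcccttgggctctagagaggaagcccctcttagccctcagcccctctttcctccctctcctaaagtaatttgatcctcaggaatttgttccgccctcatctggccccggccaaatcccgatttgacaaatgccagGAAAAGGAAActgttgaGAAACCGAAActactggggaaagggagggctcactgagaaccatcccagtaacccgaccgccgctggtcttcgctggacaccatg
IFI6: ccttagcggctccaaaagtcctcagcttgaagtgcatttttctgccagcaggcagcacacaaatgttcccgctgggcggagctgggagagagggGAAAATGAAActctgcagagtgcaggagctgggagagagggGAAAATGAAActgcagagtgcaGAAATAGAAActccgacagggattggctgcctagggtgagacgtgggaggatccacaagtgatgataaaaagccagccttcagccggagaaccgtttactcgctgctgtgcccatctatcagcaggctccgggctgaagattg
ISG15: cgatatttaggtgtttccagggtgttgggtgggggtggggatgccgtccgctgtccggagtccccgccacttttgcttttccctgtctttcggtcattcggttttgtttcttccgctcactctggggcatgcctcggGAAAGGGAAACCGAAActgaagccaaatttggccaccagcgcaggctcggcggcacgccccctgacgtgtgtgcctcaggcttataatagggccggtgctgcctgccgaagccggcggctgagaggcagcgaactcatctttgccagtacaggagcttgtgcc
B2M: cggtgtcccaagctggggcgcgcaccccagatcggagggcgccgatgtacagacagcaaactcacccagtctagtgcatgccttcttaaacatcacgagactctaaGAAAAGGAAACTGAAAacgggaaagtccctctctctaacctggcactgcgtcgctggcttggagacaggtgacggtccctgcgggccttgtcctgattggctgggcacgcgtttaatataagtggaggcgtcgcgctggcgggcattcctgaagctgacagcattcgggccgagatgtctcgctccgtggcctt
A match was found for 13 of the 24 genes of the list that fell and have a window (54.2%) and for 16 of the 22 genes not called (72.7%). Of all 27305 genes with a window, 1195 (4.38%) held one. The matches describe these letters only, and they did not single out the genes that fell within the list.

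Of 60 interferon and antigen presentation genes measured, 25 fell, 2 rose and 33 were not called. The median log2 fold change of the list was -0.44, beside 0.00 over all genes, and 45.0% of its genes were called beside 25.6% of all genes. Among all genes of mean intensity 64 or more, 20.7% rose and 22.4% fell. Beside these shares the calls of the list lay mostly on the lower side. So did those of the proteasome and antioxidant lists, with 10 falls and 1 rise each. All 25 genes of the list that fell were lower in 5 of 5 pairs, 22 of them by more than 1.5-fold and 14 by 2-fold or more. The calls needed the pairing, since the fit without the replicate block called only 5 genes lower and 1 higher. The calls of CTNNA1, KRT7, LAMB2, CD44, NRP1, DKK1, WWTR1, CCN1, IL6, SQLE and C3, genes of other lists described below, were also lost without it. Without replicate 2, 16 genes were called lower, and without replicate 5 there were 26. Of the 2 rises, 1 was called without any one of replicates 1 to 4. The fractions did not overlap for 5 of the 25 genes, beside 54.6% of all genes called lower and 8.31% of all genes.

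The overlap can be read from single arrays. IFI6 lay at 43.9, 59.4, 88.5, 45.1 and 1222 on CD90+ replicates 1 to 5 and at 152.7, 344.4, 690.7, 400.3 and 5470 on CD90- replicates 1 to 5. Within each number the CD90+ array was lower, yet replicate 5 of the CD90+ cells was brighter than 4 of the 5 CD90- arrays. The log2 fold change was -2.52 (standard error 0.24) with an adjusted p of 0.00448 in limma with the block and 0.216 without it. IFITM3 lay at 314.9, 570.6, 949.4, 521.5 and 3603 in CD90+ and at 2017, 3040, 3173, 2247 and 12077 in CD90- cells, a log2 fold change of -2.14 (standard error 0.18). Again replicate 5 was the brightest array of both fractions. IFI27, a mitochondrial interferon-induced protein, changed by -1.97 (standard error 0.17), MX1, an antiviral GTPase, by -1.91 (standard error 0.28), ISG15 by -1.61 (standard error 0.20) and IFI44 by -1.55 (standard error 0.20) on the log2 scale. The call of MX1 was lost without replicate 2. These 6 genes and those of the next sentences other than the robust ones were chosen after their values were seen.

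The high level in replicate 5 was general to the list. The mean log2 level over the 60 genes was 6.54, 6.98, 7.17, 6.93 and 8.25 on CD90+ replicates 1 to 5 and 7.06, 7.61, 7.66, 7.41 and 9.23 on CD90- replicates 1 to 5. In CD90+/CD133+ cells it was 6.55, 6.94, 7.03, 6.96 and 8.25. Replicate 5 thus stood above the others in all 3 fractions, while the difference between fractions ran the same way in each pair. The median change over the list was -0.35, -0.29, -0.44, -0.21 and -1.0 in pairs 1 to 5, and 43, 52, 46, 40 and 53 of the 60 genes were lower in CD90+ cells. Leaving out replicate 5 did not remove the falls, as given above.

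The robust falls of the list were IFI16, a sensor of nuclear DNA (log2 fold change -2.05, standard error 0.23), PSMB9, a subunit of the immunoproteasome (-1.91, standard error 0.17), SAMD9, a growth-restraining antiviral factor (-1.08, standard error 0.11), and PSMB10, a second immunoproteasome subunit (-0.89, standard error 0.11). PSMB9 had 45.1, 92.7, 101.9, 75.2 and 169.4 in CD90+ and 227.4, 337.9, 245.1, 307.8 and 691.4 in CD90- cells, with no overlap. Of the class I heavy chains, HLA-B (log2 fold change -0.32, standard error 0.14), HLA-C (-0.02, standard error 0.11) and HLA-E (-0.25, standard error 0.09) were not called. HLA-B was lower in 4 of 5 pairs, by 0.88 in replicate 5, and its other probe sets had -0.58 and -0.55. HLA-G and HLA-F fell, by 0.37 and 0.55 on the log2 scale, the latter not without any one of replicates 1 to 4. HLA genes are near-identical in sequence, and so are IFITM1, IFITM2 and IFITM3, so signal may be split between copies. Class II genes were dim. HLA-DMA, which helps load peptides onto class II molecules, had 17.9, 21.1, 22.8, 22.2 and 78.3 in CD90+ and 32.4, 84.8, 59.6, 85.7 and 246.2 in CD90- cells. The groups overlapped, and it fell in each pair (-1.57, standard error 0.20, adjusted p = 0.00862). HLA-DPA1 and HLA-DMB fell by 1.22 and 0.84, calls lost without any one of replicates 1 to 4, with 3 CD90+ arrays of HLA-DPA1 at the floor, and HLA-DRA was not called (-0.26, standard error 0.10). Of these, HLA-DMA and HLA-DPA1 were not called without the block. CD74, the invariant chain of class II molecules, rose in its brightest probe set (1.66, standard error 0.19), but its other probe sets moved by -0.18 to 0.00. IFIT5 rose by 0.52 (standard error 0.13), a call lost without any one of replicates 1 to 4. OAS1, an antiviral nucleotide synthase, had -0.42 (adjusted p = 0.12) and TAP1, the peptide transporter, -0.34 (adjusted p = 0.0616).

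**Figure D2:**
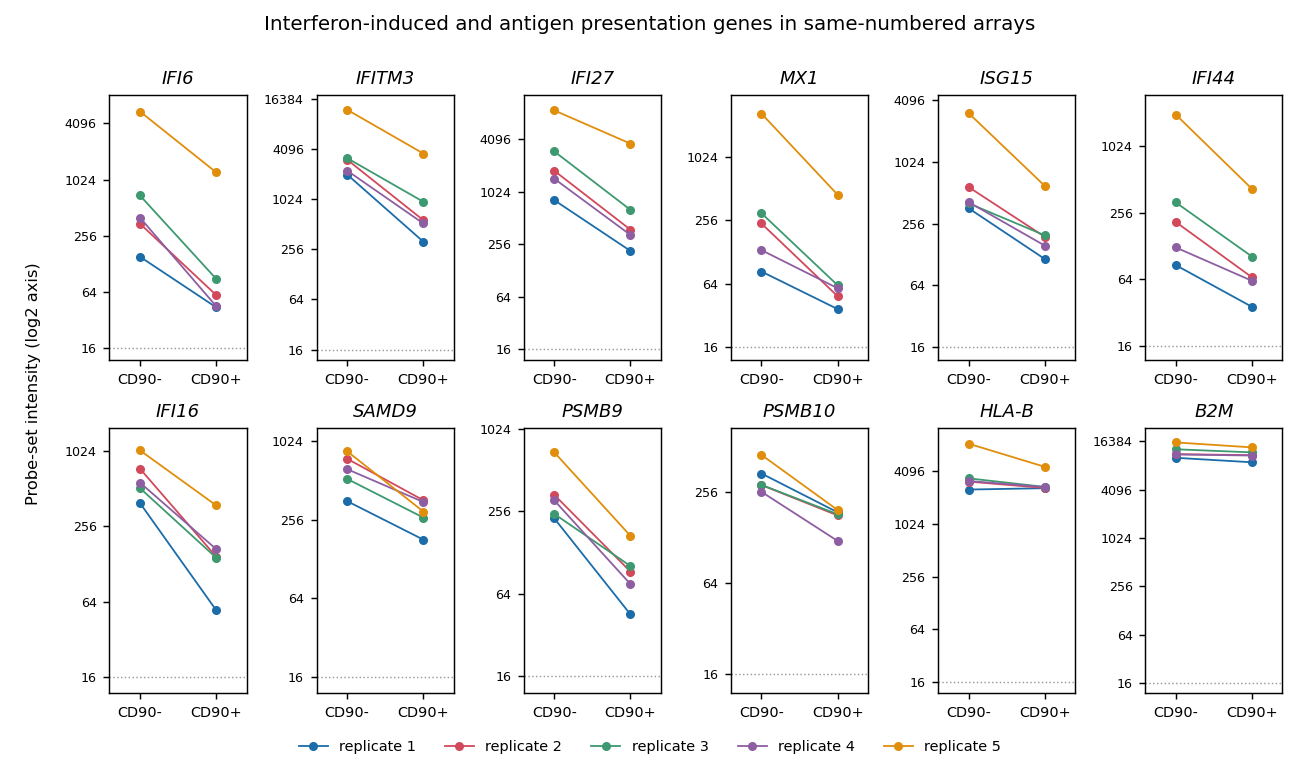
Probe-set intensity (log2 axis) of 12 interferon-induced and antigen presentation genes in CD90-/CD133- and CD90+/CD133- cells, one point per array and lines joining same-numbered arrays; the dotted line is the floor of 16. The lines of the first 10 genes fall in all 5 replicates with replicate 5 on top in most panels, those of HLA-B fall in 4 of 5 replicates, and those of B2M are nearly flat.

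Adhesion molecules moved in both directions. Of 33 cadherin, protocadherin and catenin genes, 9 rose, 3 fell and 21 were not called, and 7 rises and 1 fall were robust. CDH6, a classical cadherin of the kidney and of ovarian carcinoma, lay at 488.5, 1613, 1596, 1945 and 973.9 on CD90+ replicates 1 to 5 and at 21.6, 41.2, 158.9, 85.6 and 108.9 on CD90- replicates 1 to 5. Every CD90+ array was brighter, and the log2 fold change was 4.16 (standard error 0.38). FAT3, a giant protocadherin, rose by 2.57 (standard error 0.18) and PCDHB14, a clustered protocadherin, by 1.42 (standard error 0.15). CTNNB1, beta-catenin, rose by 0.67 and CTNNA1, alpha-catenin, by 0.48, the latter not without the block. CDH11, the mesenchymal OB-cadherin, moved the other way. It sat at the floor on each of the 5 CD90+ arrays and at 1115, 778.0, 595.2, 775.7 and 291.1 on the CD90- arrays, so it was at least 40.7-fold lower in CD90+ cells. Its other probe sets had log2 fold changes of -1.81 to -0.43. CDH1, E-cadherin, was at 1023 and 919.3 on average and was not called (log2 fold change 0.15, standard error 0.16). Without the block only 1 cadherin gene fell. CTNNB1, CTNNA1 and CDH1 were chosen after their values were seen.

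Tight junction genes split within one family. Of 29 genes, 6 rose, all of them robustly, and 4 fell, 2 robustly. CLDN11 had 1304, 937.4, 1261, 1056 and 1358 in CD90+ and 22.4, 16, 74.7, 34.9 and 69.5 in CD90- cells, with 1 CD90- array at the floor, so that its log2 fold change of 5.00 is a lower bound; its other probe sets moved by 0.00 to 0.22. CLDN3 and CLDN4, claudins that are both used as markers of ovarian carcinoma, went opposite ways. CLDN3 averaged 590.5 and 242.2 (log2 fold change 1.29, standard error 0.16), and CLDN4 407.8 and 805.2 (-0.98, standard error 0.11). Both pairs of groups were without overlap. PARD3, a polarity protein on chromosome 10, rose by 1.13 (standard error 0.11) and JAM3, a junctional adhesion molecule, fell by 1.92 (standard error 0.09).

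KRT8 and KRT18, which pair with each other in simple epithelia, were lower in CD90+ cells. KRT18 lay at 12407, 12025, 13286, 12310 and 12864 on CD90+ replicates 1 to 5 and at 19849, 18445, 18505, 18460 and 20359 on CD90- replicates 1 to 5. The spread within each fraction was small against the gap between them, and the log2 fold change was -0.60 (standard error 0.03, adjusted p = 0.00185). Its partner KRT8 averaged 4537 and 8951 (-0.98, standard error 0.10), and KRT7 fell by 0.42 (standard error 0.05), a call lost without the block. KRT19, another bright keratin of simple epithelia, averaged 6663 and 8059 and was not called (-0.27, standard error 0.09, adjusted p = 0.114), and KRT20 was at the floor. KRT23, another keratin, moved the other way, with averages of 1040 and 108.9 (3.25, standard error 0.47). Its call was lost without replicate 2 or 4. KRT7, KRT19, KRT20 and KRT23 were chosen after their values were seen. PKP3, a plakophilin of desmosomes, fell by 0.76 (standard error 0.07). Over 27 keratin, desmosome and cornified envelope genes, 7 fell and 3 rose. FLG, filaggrin, had 81.8, 299.2, 411.2, 281.7 and 820.4 in CD90+ cells and was at the floor on 4 of 5 CD90- arrays. Its log2 fold change of 4.11 (standard error 0.50) is therefore a lower bound. Without replicate 2 or without replicate 4 only 1 gene of this list rose, and without the block 4 fell.

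Integrins, the receptors that hold cells to matrix, changed in 8 of 19 genes. ITGA2, the alpha chain of a collagen receptor, lay at 700.5, 313.3, 378.4, 349.7 and 324.3 on CD90+ replicates 1 to 5 and at 1711, 1907, 1633, 2160 and 1192 on CD90- replicates 1 to 5. CD90+ replicate 1 stood well above the other CD90+ arrays, yet the fractions did not overlap, and the log2 fold change was -2.10 (standard error 0.24). ITGA4, the alpha chain of a receptor for fibronectin and VCAM1, averaged 17.1 and 160.2, with 3 CD90+ arrays at the floor (log2 fold change -3.23 as a lower bound in size). ITGB8, which binds latent TGF-beta, rose by 1.15 (standard error 0.12), ITGB2, the beta chain of leukocyte integrins, by 1.57 (standard error 0.16), and ITGB1, the most widely shared beta chain, by 0.36 (standard error 0.05). In all 3 genes rose and 5 fell, and 3 fell without replicate 2 or without replicate 4.

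Several matrix genes were among the strongest falls. FBN1, fibrillin of elastic microfibrils, lay at 71.4, 86.6, 148.8, 99.8 and 112.7 on CD90+ replicates 1 to 5 and at 1531, 1764, 1850, 2126 and 1371 on CD90- replicates 1 to 5. Every CD90- array was at least several times brighter than every CD90+ array, and the log2 fold change was -4.08 (standard error 0.18). TGFBI, a matrix protein that TGF-beta induces, had 57.0, 114.3, 276.1, 118.1 and 290.9 in CD90+ and 3158, 4103, 1713, 4576 and 2279 in CD90- cells. Its log2 fold change of -4.37 has a wide standard error of 0.62, since pairs 3 and 5 differed less than the others. SPARC, a collagen-binding glycoprotein, fell by 1.07 (standard error 0.12). BGN, biglycan, moved the other way, with 340.1, 330.4, 665.1, 558.1 and 557.6 in CD90+ and 42.2, 30.7, 110.4, 58.1 and 157.4 in CD90- cells (log2 fold change 2.82, standard error 0.27; other probe sets 0.36 to 2.59). LTBP2, a microfibril protein of the LTBP family, rose by 0.82 (standard error 0.09). Of 39 interstitial matrix genes, 5 rose and 6 fell, and 3 rose without any one of replicates 2, 3 and 4.

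In the basement membrane, the sheet under epithelia, 5 of 23 genes fell and 2 rose. COL4A5, a type IV collagen chain, averaged 23.3 in CD90+ cells with 3 arrays at the floor and 401.8 in CD90- cells, so that its log2 fold change of -4.11 is a bound. COL4A1, the main type IV chain, fell by 1.42 (standard error 0.15). LAMA4, a laminin alpha chain of vessels and mesenchyme, averaged 22.1 and 235.7 (log2 fold change -3.41, standard error 0.32). LAMC1, the gamma chain that most laminins share, rose from 798.8 to 1680 on average (1.07, standard error 0.08). LAMB2 and COL4A2, chosen after their values were seen, changed by 0.88 and -1.30. Without the block only 1 gene of this list rose.

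Proteases and their inhibitors fell more often than they rose (12 and 6 of 42). SERPINE2, an inhibitor of thrombin and urokinase, lay at 986.2, 1439, 1261, 1459 and 1191 on CD90+ replicates 1 to 5 and at 4465, 7634, 5238, 8309 and 5177 on CD90- replicates 1 to 5. The fractions were clearly apart (log2 fold change -2.25, standard error 0.08, adjusted p = 0.00113), but the gene's other, dim probe set moved by -0.02. Kallikreins, secreted serine proteases encoded next to each other on chromosome 19, diverged. KLK7 rose by 2.22 (standard error 0.14) and KLK10 fell by 2.15 (standard error 0.25). MMP16, a membrane-bound metalloproteinase, was at the floor on all CD90+ arrays and averaged 60.6 in CD90- cells, at least 3.79-fold lower. ADAM9, a sheddase, rose by 0.48 (standard error 0.06). Of the list, 7 genes fell without replicate 2 or without replicate 4, and 3 rose without replicate 4.

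**Figure D3:**
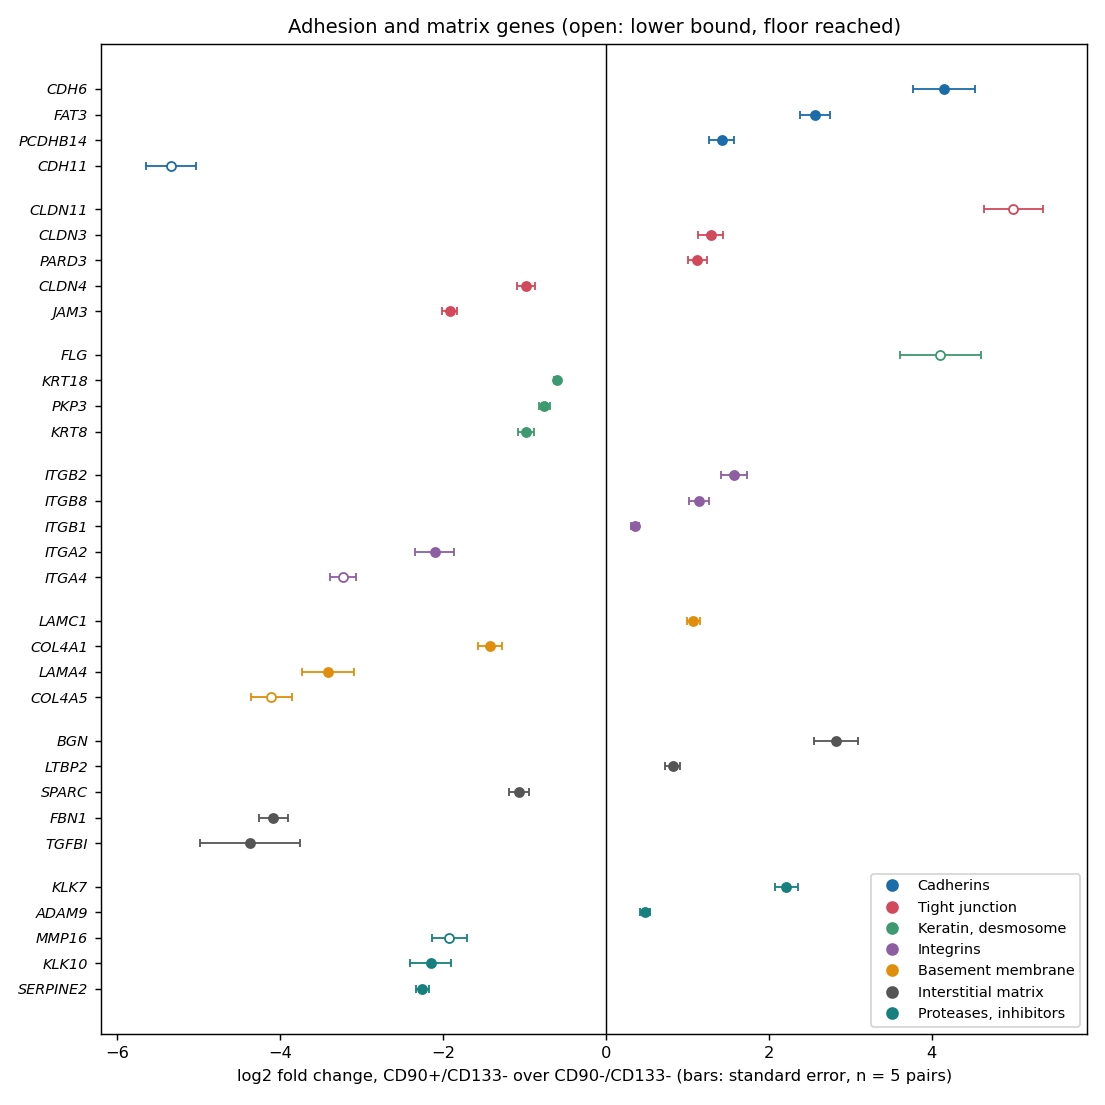
Log2 fold change of robustly called adhesion and matrix genes, CD90+/CD133- over CD90-/CD133- cells, with standard errors from limma over 5 pairs; open points are lower bounds in size because arrays reached the floor. Cadherins and claudins lie on both sides, from -5.35 for CDH11 to 5.00 for CLDN11, and fibrillar matrix genes such as FBN1 and TGFBI lie far to the left.

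Among transcription factors of development, 8 of 56 rose and 10 fell. CBFB, the partner subunit of RUNX factors, lay at 805.5, 756.3, 736.8, 757.2 and 638.8 on CD90+ replicates 1 to 5 and at 16, 16, 46.7, 24.9 and 20.5 on CD90- replicates 1 to 5. The log2 fold change of 5.02 is a lower bound with 2 CD90- arrays at the floor, and the gene's other probe set moved by 1.36. MEIS2, a HOX cofactor, averaged 234.1 and 877.5 (log2 fold change -1.91, standard error 0.15), and GATA2, a zinc finger factor, 31.5 and 123.4 (-1.97, standard error 0.17). Without any one of replicates 1 to 4, 6 genes of this list fell, and without replicate 1, 5 rose. Factors of the Müllerian tract and gonad, from which ovarian carcinoma takes much of its differentiation, were called in 6 of 21 genes. This share was near the 25.6% of all genes. EMX2, a homeobox factor of the urogenital tract, was at the floor on 4 of 5 CD90+ arrays and averaged 296.5 in CD90- cells, a log2 fold change of -4.09 as a bound. MECOM, a zinc finger oncogene often gained in ovarian cancer, averaged 329.3 and 41.7 (2.98, standard error 0.33). FOXL2, a granulosa cell factor, fell by 0.85 (standard error 0.10). PAX8 and WT1, which mark serous carcinoma, were not called, with log2 fold changes of 0.30 (standard error 0.10) and -0.15 (standard error 0.11). Of the 2 rises and 4 falls, 1 rise was left without replicate 2 or without the block, and 2 falls without replicate 4. PAX8 and WT1 were chosen after their values were seen.

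HOX genes, which set position along the body axis, rose in 6 and fell in 3 of 26 cases. HOXC10 had 244.5, 228.9, 262.5, 241.8 and 199.3 in CD90+ and 26.3, 40.3, 60.7, 50.2 and 68.4 in CD90- cells, a log2 fold change of 2.33 (standard error 0.26). In the HOXB cluster, HOXB5 and HOXB6 rose by 0.62 (standard error 0.04) and 0.60 (standard error 0.03), each in 5 of 5 pairs. Of the 3 falls, none was called without replicate 1 or without replicate 2, and 1 without replicate 3 or without replicate 4.

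Factors of epithelial-mesenchymal transition did not move as one group, with 5 rises and 3 falls in 25 genes. TWIST1, a mesenchymal basic helix-loop-helix factor, lay at 35.2, 29.6, 27.9, 27.4 and 33.2 on CD90+ replicates 1 to 5 and at 130.6, 133.6, 127.2, 123.6 and 96.7 on CD90- replicates 1 to 5. All CD90+ arrays were close together and far under the CD90- arrays (log2 fold change -1.99, standard error 0.12). OVOL1, a zinc finger factor of epithelia, rose by 1.20 (standard error 0.11), and KLF8 fell by 1.25 with 4 CD90+ arrays at the floor. FOXC2, also of this list, rose by 1.33 (standard error 0.23), a call lost without replicate 1, 2 or 3. TWIST2 averaged 446.4 and 461.6 and was not called (-0.05, standard error 0.04). FOXC2 and TWIST2 were chosen after their values were seen. Without any one of replicates 2, 3 and 4, 3 genes rose.

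Markers used for stem-like cells were mixed. Of 25 genes, 3 rose and 5 fell. CD24, a mucin-like surface protein, had 6639, 6551, 8803, 7686 and 9288 in CD90+ and 2944, 3702, 4119, 4227 and 4294 in CD90- cells, without overlap (log2 fold change 1.01, standard error 0.07, adjusted p = 0.00232). EPCAM, the epithelial adhesion molecule, rose by 0.33 (standard error 0.04). CD44, the hyaluronan receptor, fell by 0.39 (standard error 0.06) and NES, nestin, by 1.01 (standard error 0.20), and both calls were lost without any one of replicates 2 to 5. Of the 5 falls, 2 were called without replicate 2, 3 or 4 and 1 without the block. ALCAM, a surface adhesion molecule from the list of ovarian carcinoma antigens, averaged 5176 and 1281 (2.01, standard error 0.08). From the same list L1CAM, a neural adhesion molecule, rose by 2.67 (standard error 0.15) and MCAM, the melanoma adhesion molecule CD146, by 2.49 (standard error 0.15), although another probe set of L1CAM moved by 0.22 and another of MCAM by -0.07. CRABP2, a retinoic acid binding protein, fell by 2.27 (standard error 0.20) and CLU, the secreted chaperone clusterin, by 1.92 (standard error 0.25). Of 39 antigens, 5 rose and 7 fell, with 4 falls left without replicate 1, 2 or 4 and without the block. CD44 and NES were chosen after their values were seen.

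Growth factor receptors and their ligands fell in 15 and rose in 8 of 67 genes. Of all genes, 13.7% fell and 12% rose, and of those of mean intensity 64 or more, 22.4% fell and 20.7% rose. EGFR, the epidermal growth factor receptor, lay at 632.0, 920.8, 890.8, 1059 and 1118 on CD90+ replicates 1 to 5 and at 1398, 2184, 2086, 2358 and 2116 on CD90- replicates 1 to 5. Replicate 1 was lowest in both fractions and the fractions did not overlap (log2 fold change -1.14, standard error 0.055), while other probe sets of the gene ranged from -1.83 to 0.11. KITLG, the ligand of KIT, averaged 141.0 and 504.9 (-1.84, standard error 0.20). GAS6, the ligand of TYRO3, AXL and MERTK, averaged 1632 and 441.1 (1.89, standard error 0.12), and its other probe set moved by 2.30. VEGFA, the angiogenic growth factor, averaged 655.1 and 215.1 (1.61, standard error 0.20), with CD90+ replicate 5 at 1281. GFRA1, a co-receptor of GDNF, rose by 1.78 (standard error 0.18), and IGFBP2, a binding protein of insulin-like growth factors, fell by 1.59 with 3 CD90+ arrays at the floor. The falls numbered 6, 7 and 6 without replicates 2, 3 and 4.

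Guidance molecules, first known from growing axons, were called in 15 of 55 genes (8 rises, 7 falls), a share near the 25.6% of all genes. NTN4, a netrin of basement membranes, had 248.9, 370.0, 436.8, 417.5 and 430.7 in CD90+ and 75.1, 113.3, 117.2, 125.6 and 188.0 in CD90- cells (log2 fold change 1.65, standard error 0.11). SEMA3F, a secreted semaphorin, averaged 280.9 and 557.8 (-0.99, standard error 0.05), and its receptors NRP1 and NRP2, chosen after their values were seen, rose by 1.46 (standard error 0.22) and 1.58 (standard error 0.28). The call of NRP1 was lost without replicate 2 and that of NRP2 without replicate 1, 2 or 4. SEMA4B rose by 0.72, and EFNA1, an ephrin, fell by 0.88. The rises numbered 4, 3 and 4 without replicates 1, 2 and 4 and 5 without the block, and the falls 4 without replicate 4.

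Wnt proteins are secreted ligands that bind Frizzled receptors and stabilise beta-catenin. Among the 54 genes of this pathway, 12 rose and 9 fell. The ligands WNT7A and WNT7B fell by 0.90 (standard error 0.09) and 0.65 (standard error 0.05). Of the receptors, FZD5 rose by 1.13 (standard error 0.11), and FZD10 fell, with 16, 23.4, 93.4, 28.3 and 86.6 in CD90+ and 150.6, 214.4, 343.4, 225.9 and 473.5 in CD90- cells and 1 array at the floor (log2 fold change -2.75, standard error 0.25). SFRP1, a secreted Wnt antagonist, averaged 1106 and 407.4 (1.44, standard error 0.13), and DKK1, another antagonist, 1370 and 335.8 (2.03, standard error 0.26). APC, a scaffold of the complex that degrades beta-catenin, rose by 0.55 (standard error 0.07). DKK1 and WNT5A, a ligand that fell by 1.67 (standard error 0.28), were chosen after their values were seen, and the call of WNT5A was lost without any one of replicates 2 to 5. The rises numbered 7, 6 and 5 without replicates 2, 3 and 4 and 5 without the block, and the falls 3 and 5 without replicates 2 and 5.

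In the TGF-beta and BMP pathway 13 of 45 genes fell and 7 rose. TGFBR2, the ligand-binding receptor of TGF-beta, lay at 446.7, 691.6, 974.1, 826.3 and 802.3 on CD90+ replicates 1 to 5 and at 182.7, 164.1, 195.0, 197.9 and 225.9 on CD90- replicates 1 to 5. The fractions did not overlap (log2 fold change 1.92, standard error 0.17), but another, dim probe set of the gene moved by -0.38. The ligands BMP4 and BMP2, which use the same receptors, moved apart. BMP4 averaged 239.2 and 56.7 (2.08, standard error 0.26) and BMP2 30.1 and 166.6 (-2.47, standard error 0.15, with 1 CD90+ array at the floor). INHBA, a subunit of activin, averaged 413.5 and 1473 (-1.83, standard error 0.17). BAMBI, a pseudoreceptor that dampens the pathway, averaged 111.3 and 464.1 (-2.06, standard error 0.06), and SMAD6, an inhibitory SMAD, rose by 1.40 (standard error 0.13). SMAD2 and SMAD4, which carry the signal to the nucleus, fell by 1.00 and 0.92. These 2 are named after their values were seen. They lie on chromosome 18, where the medians of their neighbours were -0.68 and -0.44. The rises numbered 4 without replicate 2.

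The Hippo pathway restrains the coactivators YAP1 and WWTR1 (TAZ), and 10 of its 30 genes rose while 5 fell. SAV1, a scaffold of the core kinases, lay at 1653, 1702, 1754, 2029 and 1818 in CD90+ and at 726.2, 909.0, 765.4, 1041 and 689.2 in CD90- cells (log2 fold change 1.13, standard error 0.08). MOB1B, a kinase activator, rose by 0.50 (standard error 0.06), VGLL4, a competitor of YAP1 for TEAD factors, by 0.47 (standard error 0.04), and TEAD4 itself fell by 0.49 (standard error 0.06). YAP1 and WWTR1 rose by 0.52 (standard error 0.08) and 0.50 (standard error 0.10). Of their targets, CCN1 and ANKRD1 rose by 1.25 (standard error 0.14) and 2.03 (standard error 0.40), while CCN2 averaged 544.3 and 913.7, lower in 5 of 5 pairs and not called (-0.75, standard error 0.20, adjusted p = 0.0635). The call of YAP1 was lost without replicate 3, that of WWTR1 without replicate 1, 2 or 3, and that of ANKRD1 without any one of replicates 2 to 5. Those of WWTR1 and CCN1 were lost without the block. These last 5 genes were chosen after their values were seen. Over the list, 6 genes rose without replicate 2 and without the block, and the falls numbered 3, 1, 3, 1 and 2 without replicates 1 to 5 and 2 without the block. In the Notch list 4 of 36 genes rose and 2 fell, none of them robustly, and no rise was left without replicate 2 or 4 and no fall without replicate 1.

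Cytokine and NF-kB genes were called in 16 of 57 cases, 7 of them rises. Beside IER3, IL6ST, the shared receptor chain of the interleukin 6 family, rose by 0.58 (standard error 0.09). IL6, the cytokine itself, averaged 485.0 and 120.9 (log2 fold change 2.00, standard error 0.50, adjusted p = 0.0494), a call that was lost without any one of replicates 2 to 5, and LIFR, a receptor of leukemia inhibitory factor, averaged 194.7 and 62.1 (1.65, standard error 0.24), a call lost without replicate 2. IL6 and LIFR were chosen after their values were seen. Falls were led by TNFSF15, a TNF family ligand (-1.39, standard error 0.13), TNFAIP8 (-1.01, standard error 0.11) and CXCL16, a transmembrane chemokine (-0.61, standard error 0.06). The rises numbered 2 and 3 without replicates 2 and 3 and 3 without the block, and the falls 5 without replicate 1, 2 or 4 and without the block.

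Genes of cell death rose in 8 and fell in 7 of 45 cases. The rises held pro- and anti-apoptotic members, and no inhibitor of apoptosis on this list was called lower. DIABLO, a mitochondrial antagonist of caspase inhibitors, averaged 1254 and 625.1 (log2 fold change 1.00, standard error 0.07), CASP8, the caspase of death receptors, 384.1 and 198.7 (0.95, standard error 0.08), and BCL2L1, an inhibitor of apoptosis, 455.1 and 304.1 (0.58, standard error 0.07). BIK, a BH3-only protein, averaged 910.7 and 1890 (-1.05, standard error 0.09). CASP1, the inflammatory caspase, fell by 0.87 and BAD, a BH3-only protein, by 0.53. The rises numbered 5, 4, 5 and 4 without replicates 1 to 4, and the falls 4 without replicate 2 or 4.

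PEO1 is known for a BRCA2 mutation, and genes of homologous recombination and its regulation were called in 16 of 48 cases, 8 in each direction. RIF1, which protects broken ends from resection, rose by 0.82 (standard error 0.09), PARG, which removes poly(ADP-ribose), by 0.68 (standard error 0.06), and ATM, a kinase that senses breaks, by 0.65 (standard error 0.08). One other probe set of RIF1 moved by -1.23. RAD52, an annealing protein, fell by 0.86 (standard error 0.11) and MAD2L2, a subunit of shieldin, by 0.34 (standard error 0.03). The probe set of RAD52 was dim, with a mean of 37.6, and other probe sets of RAD52 moved by -0.89, -0.08 and -0.03. The falls numbered 5, 4, 5 and 5 without replicates 1 to 4.

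Among 42 cyclins, kinases, inhibitors and E2F factors of the cell cycle, 5 rose and 7 fell, a share of 28.6% beside 25.6% of all genes. CCNE1, cyclin E1, ran from 94.3 to 152.3 over the CD90+ arrays and from 246.8 to 288 over the CD90- arrays, without overlap (log2 fold change -1.01, standard error 0.11). CDKN1B, the inhibitor p27, fell by 0.82 (standard error 0.11), PCNA, the replication clamp, by 0.43 (standard error 0.02), and E2F3 rose by 0.64 (standard error 0.07). The rises numbered 3, 2, 2 and 2 without replicates 1 to 4 and 2 without the block, and the falls 4 without replicate 4 and without the block.

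Respiratory chain genes, encoded in the nucleus, were called in 22 of 61 cases, 15 of them falls. ATP5MC3, which encodes the c subunit of ATP synthase together with paralogs at other loci, lay at 16.9, 38.8, 130.3, 29.96 and 189 on CD90+ replicates 1 to 5 and at 3129, 3457, 3144, 3101 and 2734 on CD90- replicates 1 to 5. The CD90- arrays were nearly equal, and the CD90+ arrays spread over more than 10-fold, so the log2 fold change of -5.83 has a standard error of 0.65. Its other probe sets moved by -5.89 to -1.27. SDHC, an anchor subunit of complex II, averaged 1066 and 2277 (-1.09, standard error 0.05), and NDUFA9, of complex I, 1040 and 1736 (-0.74, standard error 0.06). NDUFA5, also of complex I, averaged 1865 and 969.8 (0.94, standard error 0.07), ATP5F1C, of ATP synthase, rose by 0.52 (standard error 0.04) and COX6A1, of complex IV, by 0.46 (standard error 0.06). Subunits of one complex thus moved in both directions.

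Ribosomal protein genes rose in 11 and fell in 3 of 43 cases, all by less than 1.5-fold. RPL14 lay at 17135, 17093, 16951, 16638 and 15920 in CD90+ and at 12378, 11761, 12487, 11543 and 13121 in CD90- cells (log2 fold change 0.45, standard error 0.04). RPL6 rose by 0.40 (standard error 0.02) and RPL9 by 0.33 (standard error 0.03), while RPL7 fell by 0.17 (standard error 0.01) and RPL11 by 0.13 (standard error 0.02). Ribosomal protein genes have many near-identical pseudogenes, which can share signal. Without any one of replicates 1, 2 and 3, 7 genes rose. Proteasome genes went the other way, with 10 falls and 1 rise in 33 genes and a median of -0.10. PSMD10, a chaperone of the regulatory particle, fell by 0.55 (standard error 0.05), PSMB6, a catalytic core subunit, by 0.49 (standard error 0.05), and PSMD4, a ubiquitin receptor, by 0.39 (standard error 0.02), although the probe set of PSMD4 that the array design treats as specific moved by 0.05. The falls numbered 5 and 6 without replicates 2 and 4 and 5 without the block, and the rise was lost without replicate 1, 2 or 4 and without the block.

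Sterol and fatty acid synthesis genes had a median of -0.28, with 7 falls and 3 rises in 39 genes. PMVK, phosphomevalonate kinase of the mevalonate pathway, lay at 164.1, 214.4, 180.0, 178.5 and 211.0 in CD90+ and at 397.6, 445.7, 453.7, 394.1 and 515.7 in CD90- cells, without overlap (log2 fold change -1.22, standard error 0.05). FDPS, farnesyl diphosphate synthase, averaged 1214 and 2536 (-1.06, standard error 0.20), HSD17B7, a sterol ketoreductase, 329.5 and 907.1 (-1.46, standard error 0.25), and SQLE, squalene epoxidase, 846.8 and 1302 (-0.62, standard error 0.11). These 3 were chosen after their values were seen, and each call was lost without replicate 2 and without replicate 4. ACSL1, an acyl-CoA synthetase, rose by 0.46 (standard error 0.04). The falls numbered 4, 2 and 2 without replicates 1, 2 and 4, 10 without replicate 5 and 4 without the block, and 1 gene rose without replicate 1, 2 or 4.

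Antioxidant genes fell in 10 and rose in 1 of 44 cases. MGST3, a microsomal glutathione transferase, averaged 1952 and 3581 (log2 fold change -0.88, standard error 0.10), but its other probe sets moved by -0.03 to 0.05. SRXN1, sulfiredoxin, fell by 0.56 (standard error 0.06) and ABCC1, a multidrug and glutathione conjugate exporter, by 0.48 (standard error 0.06). NFE2L2, the NRF2 transcription factor, fell by 0.63 (standard error 0.13) and its target NQO1, a quinone reductase, by 0.62 (standard error 0.13), both chosen after their values were seen and both lost without any one of replicates 1 to 4. PRDX6, a peroxiredoxin, was the rise (0.69, standard error 0.09). The falls numbered 6, 3 and 4 without replicates 1, 2 and 4, and 2 genes rose without replicate 5. Of 39 unfolded protein response genes, 5 fell and 3 rose. MANF and CRELD2, secreted stress factors of the endoplasmic reticulum, fell by 0.77 (standard error 0.05) and 0.70 (standard error 0.06), and ERO1A, an oxidase of the same compartment, rose by 0.68 (standard error 0.06). The falls numbered 3 without replicate 1 or 2.

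Metal ion transporters and metal-responsive genes rose in 10 and fell in 6 of 42 cases. SLC39A4, a zinc importer, lay at 911.7, 879.0, 485.1, 685.0 and 243.4 on CD90+ replicates 1 to 5 and at 18.9, 23.9, 47.5, 26.3 and 20.8 on CD90- replicates 1 to 5. The lowest CD90+ array was still several times the highest CD90- array (log2 fold change 4.48, standard error 0.42). SLC40A1, the iron exporter ferroportin, had 36.1, 64, 69.3, 62.5 and 116.7 in CD90+ and 143.0, 266.1, 242.0, 232.9 and 469.5 in CD90- cells, with nearly the same factor in each pair (-1.95, standard error 0.04, adjusted p = 4.6e-04); its other probe set moved by -0.10. MTF1, the metal-responsive transcription factor, rose by 0.96 (standard error 0.12) and ATP7B, a copper exporter, by 0.95 (standard error 0.13). The rises numbered 6, 5 and 6 without replicates 1, 2 and 4, and the falls 3 and 2 without replicates 1 and 2 and 3 without the block.

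Ion channel genes fell in 11 and rose in 4 of 74 cases, beside 13.7% and 12% of all genes. Some of the falls were among the largest of all. NETO2, an auxiliary subunit of kainate receptors, lay at 18.2, 18.9, 31.6, 20.7 and 26.6 in CD90+ and at 881.3, 714.9, 997.0, 599.4 and 375.5 in CD90- cells (log2 fold change -4.90, standard error 0.28). TRPM1, a channel of retina and melanocytes, averaged 324.1 in CD90- cells and was at the floor on 3 of 5 CD90+ arrays (-4.15 as a bound). P2RX5, a purinergic receptor, fell by 1.21 (standard error 0.09). KCNH2, a voltage-gated potassium channel, averaged 224.3 and 77.2 (1.54, standard error 0.09), and TRPM7, a magnesium channel with a kinase domain, rose by 0.70 (standard error 0.08). Without replicate 2, 3 or 4, 2 genes rose. Of 31 ABC transporters, 6 rose and 5 fell. ABCA3, a lipid transporter, averaged 169.2 and 67.8 (1.32, standard error 0.11), and ABCC4, an exporter of cyclic nucleotides and prostaglandins, fell by 0.81 (standard error 0.07). The rises numbered 3 without replicate 1, 2 or 4, and the falls 2 without replicate 2, 3 or 4 and 3 without the block.

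Chromatin regulators rose in 21 and fell in 14 of 91 cases. KDM2B, a histone demethylase of a Polycomb complex, had 600.2, 671.4, 638.1, 673.5 and 488.7 in CD90+ and 188.8, 187.6, 225.0, 181.2 and 203.1 in CD90- cells (log2 fold change 1.63, standard error 0.11). KMT2C, a histone methyltransferase of enhancers, averaged 1033 and 353.1 (1.55, standard error 0.09) and HDAC9, a class IIa deacetylase, 184.2 and 82.8 (1.15, standard error 0.12). CBX2, a Polycomb reader, averaged 60.1 and 191.1 (-1.67, standard error 0.09), SMYD3, a methyltransferase, 328.1 and 699.1 (-1.09, standard error 0.11), and KDM5A, a demethylase, 250.7 and 431.0 (-0.78, standard error 0.04). EZH2, the Polycomb methyltransferase, rose by 0.86 (standard error 0.05) and is named after its values were seen. The rises numbered 13, 12, 11 and 9 without replicates 1 to 4, and the falls 8, 6, 8 and 7, or 8 without the block.

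Enzymes and core proteins of heparan sulfate, mucin and other glycans were called in 30 of 66 cases, 14 rises and 16 falls. HS6ST2, which adds 6-O-sulfate to heparan sulfate, lay at 16, 31.5, 52.2, 38.9 and 91.6 in CD90+ and at 1056, 834.3, 939.0, 895.9 and 805.6 in CD90- cells, a log2 fold change of -4.52 (standard error 0.44) with 1 array at the floor. SULF2, which removes 6-O-sulfate outside the cell, averaged 26.6 and 190.2 (-2.84, standard error 0.24), and XYLT1, which starts the chains, 82.0 and 274.5 (-1.74, standard error 0.21). HS2ST1, a 2-O-sulfotransferase, rose by 0.84 (standard error 0.09). ST6GALNAC5, a sialyltransferase of gangliosides, averaged 285.2 and 70.6 (2.02, standard error 0.23), and MGAT4A, which branches N-glycans, rose by 0.96 (standard error 0.07). The rises numbered 8, 7, 9 and 7 without replicates 1 to 4, and the falls 10 and 9 without replicates 1 and 4.

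Nuclear receptor and steroid response genes rose in 9 and fell in 4 of 48 cases. NR3C1, the glucocorticoid receptor, had 1865, 1783, 1620, 1837 and 1717 in CD90+ and 1053, 1012, 1045, 1055 and 975.3 in CD90- cells, with no overlap. It rose by 0.78 (standard error 0.03) on the log2 scale. NCOA1, a receptor coactivator, rose by 0.97 (standard error 0.04), and PDZK1, a scaffold that oestrogen induces, by 2.39 (standard error 0.26). VDR, the vitamin D receptor, fell by 0.45 (standard error 0.04) and CYP24A1, the vitamin D hydroxylase that VDR induces, by 2.67 (standard error 0.34). ESR1, the oestrogen receptor, was at 982.2 and 1009 and was not called (-0.04, standard error 0.09); it was chosen after its values were seen. The rises numbered 3, 4 and 4 without replicates 2, 3 and 4.

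Imprinted genes, which are read from one parental copy, were called in 15 of 33 cases (8 rises, 7 falls). ZNF597 averaged 94.9 and 35.5 (log2 fold change 1.42, standard error 0.03, adjusted p = 4.4e-04), PEG10, a retrotransposon-derived gene, 708.6 and 287.9 (1.30, standard error 0.17), and ATP10A, a phospholipid flippase, 1389 and 571.1 (1.28, standard error 0.08). NDN, necdin, lay at 480.0, 531.5, 534.3, 479.4 and 507.4 in CD90+ and at 1060, 1200, 1158, 1189 and 1191 in CD90- cells (-1.20, standard error 0.03). PHLDA2, a growth-restraining gene of placenta, fell by 0.64 (standard error 0.08). The falls numbered 3, 4, 3 and 4 without replicates 2 to 5 and 3 without the block. Of 35 immediate early genes 5 rose, led by IER3, and 2 fell, among them ZFP36L2, an RNA-binding protein (-0.88, standard error 0.11). The rises numbered 3, 2, 2 and 3 without replicates 1, 2, 4 and 5 and 3 without the block.

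**Figure D4:**
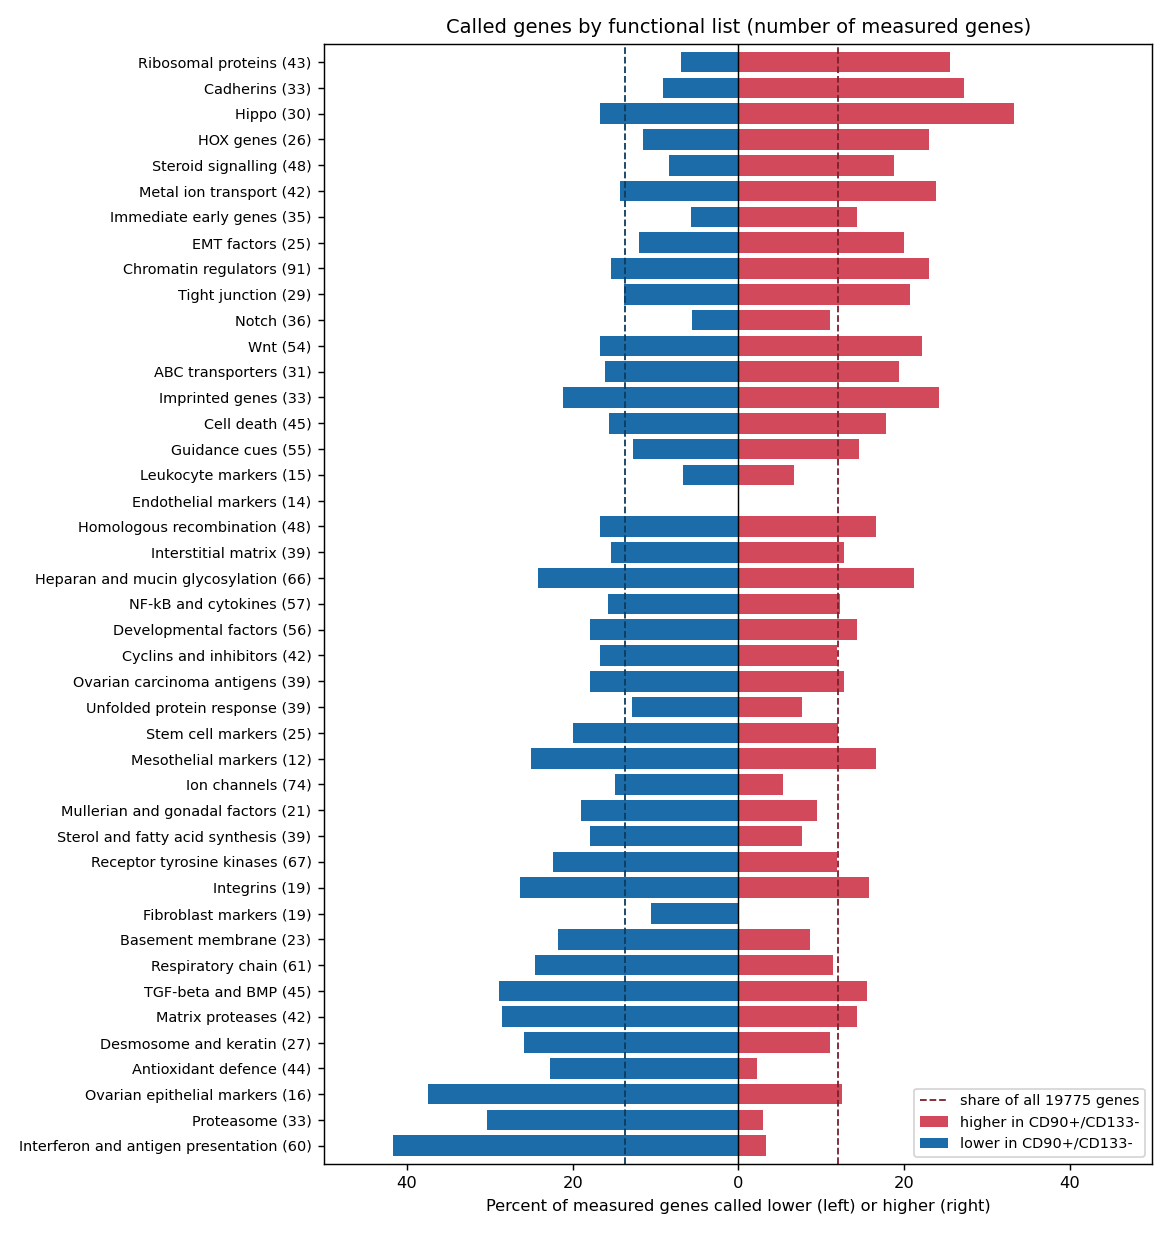
Percent of measured genes called lower (bars to the left) or higher (bars to the right) in the CD90+ fraction for the functional lists, with the number of measured genes in brackets; dashed lines are the shares of all 19775 genes (13.7% lower, 12% higher). The longest bar to the left is that of the interferon and antigen presentation list, and endothelial markers have no bar. Among genes of mean intensity 64 or more, the shares are 22.4% lower and 20.7% higher.

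Markers of other cell types were checked because THY1 itself marks fibroblasts, endothelium and other cells in tissue. Fibroblast markers did not rise with CD90. Of 19, none was higher and 2 were lower, 6 including PDGFRA, LUM and COL3A1 were at the floor on all 10 arrays, and their summed intensity ran from 612 to 785 in CD90+ and from 755 to 870 in CD90- cells. Without replicate 5, 2 fibroblast markers were called higher, and 1 was lower without replicate 1, 2, 4 or 5. FAP, a protease of activated fibroblasts, fell (log2 fold change -2.02, standard error 0.23), and COL1A1, the main fibrillar collagen, was not called (-0.12, standard error 0.06). None of 14 endothelial markers was called, 1 was lower without replicate 4 and without the block, and CDH5, KDR, TIE1 and EMCN were at the floor on all arrays. Their sums were 385 to 483 and 432 to 486. Of 15 leukocyte markers, CD14, a lipopolysaccharide co-receptor, rose (0.96, standard error 0.15), a call that was lost without replicate 1, 2 or 4, CD8A fell (-0.80, standard error 0.08), and PTPRC, which encodes the leukocyte antigen CD45, was at the floor throughout. Their sums were 403 to 467 and 373 to 433.

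Mesothelial markers summed to between 3883 and 7880 in CD90+ and between 2646 and 5809 in CD90- cells, mostly through KRT5 and C3. C3, a complement factor, rose (1.22, standard error 0.11), a call lost without the block. KRT5, a basal keratin, was not called (0.76, standard error 0.22). CALB2, calretinin, fell by 0.84 (standard error 0.10). Of 12 mesothelial markers 2 rose and 3 fell, with 1 rise left without any one of replicates 1 to 4 and without the block, and 1 fall without replicate 1, 2 or 4. Markers of ovarian epithelium summed to between 39388 and 52955 in CD90+ and between 55266 and 70462 in CD90- cells. These ranges did not overlap, and most of each sum came from the keratins KRT7, KRT8, KRT18 and KRT19. Of 16 markers, 6 fell and 2 rose (EPCAM and CLDN3), and 4 rose without replicate 1 while 3 fell without the block. The epithelial identity of the line was plain in both fractions, with EPCAM at 7470 and 5943 on average. The part of these marker levels in the results above was not tested.

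Position on the chromosomes moved with many of these results. Genes of a mean intensity of 64 or more were ordered along the chromosomes and set in 200 stretches of about 50 genes. The median log2 fold change per stretch ran from -0.68 to 1.29, with 30 stretches over 0.2 and 36 under -0.2, and in 21 stretches over 50% of the genes rose while in 11 over 50% fell. On chromosome 12, the stretch of 49 genes from KNTC1 to ANHX had a median of 1.29, and 87.8% of its genes rose. In pairs 1 to 5 its median was 1.18, 1.26, 1.08, 1.31 and 1.30. The next stretch towards the centromere, from RBM19 to RSRC2, had 0.71 with 81.6% rising. Other stretches over 0.5 included the end of the long arm of X (ZNF449 to VAMP7, 0.62), the end of chromosome 15 (KLHL25 to TM2D3, 0.58) and the end of chromosome 7 (ZNF398 to DYNC2I1, 0.55). The lowest were on chromosome 18 (TAF4B to MBD2, -0.68, with 68.0% of genes falling), chromosome 2 (PSMD14 to PLEKHA3, -0.63, 75.0%) and the tip of chromosome 11 (BET1L to TRIM5, -0.56, 70.0%). For the stretch of chromosome 12 and that of chromosome 18, CD90+/CD133+ cells differed from the same CD90- arrays by medians of 1.12 and -0.75.

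Shares over whole chromosomes differed too. On chromosome 10, 56.7% of 388 genes rose and 8.76% fell, beside 20.7% and 22.4% of all genes at this level. On chromosome 15 these shares were 43.2% and 5.40%, and on chromosome 20 they were 4.42% and 43.5%. The medians of these 3 chromosomes were 0.43, 0.24 and -0.23. Chromosome 10 did not shift throughout, since its last stretch, from EIF3A to MTG1, had a median of -0.18. The arrays measured RNA only, and gene copy number was not measured.

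For each gene, the median change of the 25 genes on each side at a level of 64 or more was set beside its own. Of 2357 genes that rose and could be placed, 981 (41.6%) had neighbours with a median over 0.2, beside 15.5% of all 19687 genes placed. Of 2701 that fell, 962 (35.6%) had neighbours with a median under -0.2, beside 19.5% of all. Among genes named above, the neighbours' median was 1.21 for DIABLO, 0.91 for KDM2B, 0.65 for RPL6 and 0.63 for COX6A1 on chromosome 12. It was 0.71 for ITGB1 and 0.66 for PARD3 on chromosome 10, 0.62 for BGN and L1CAM on X, and 0.60 for ANPEP on chromosome 15. Among falls it was -0.68 for COL4A1, -0.66 for ATP5MC3, -0.55 for ITGA4 and FAP, -0.55 for IFITM3 and -0.53 for PKP3. The size of the change differed from that of the neighbours in many of these genes, with ANPEP at 3.41 and ATP5MC3 at -5.83.

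Other genes went against their surroundings. FZD10 fell by 2.75 in the stretch of chromosome 12 with the highest median, where its own neighbours stood at 1.29. BAMBI fell by 2.06 among neighbours at 0.71 on chromosome 10, and GAS6 rose by 1.89 among neighbours at -0.98 on chromosome 13. Neighbours were close to level for THY1 (0.08), SOX7 (0.04), CDH6 (-0.07), IER3 (0.15) and CADM1 (0.09). By list, 6 of the 10 proteasome falls and 4 of the 5 falls of the unfolded protein response had neighbours under -0.2, as did 7 of the 14 respiratory chain falls that could be placed and 6 of the 25 interferon falls. The 3 IFITM genes were among the latter, whereas neighbours stood at -0.19 for IFI6, 0.17 for IFI27, -0.12 for ISG15 and -0.13 for MX1.

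**Figure D5:**
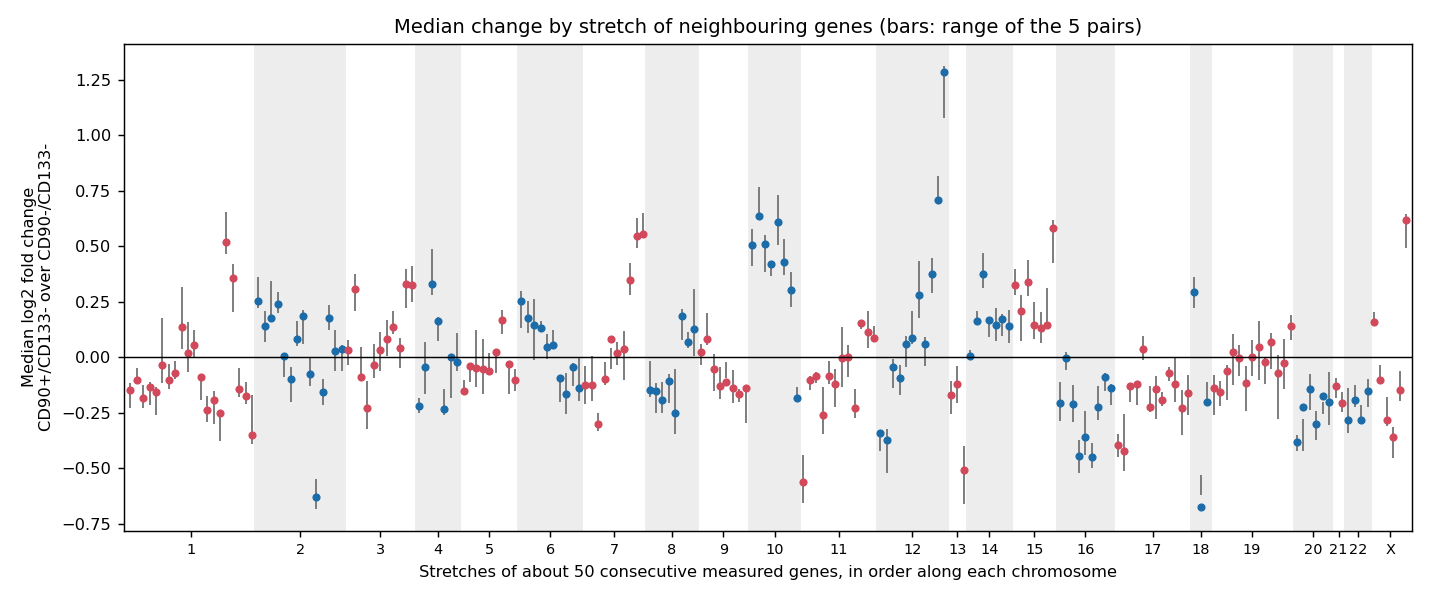
Median log2 fold change, CD90+/CD133- over CD90-/CD133- cells, of 200 stretches of about 50 neighbouring measured genes in chromosome order, with bars for the range of the 5 pairs. All stretches of chromosome 10 but the last lie above 0, the highest point is the stretch of chromosome 12 at 1.29, and single stretches of chromosomes 2, 11, 13 and 18 lie at or under -0.5.

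Levels in CD90+/CD133+ cells stood near those of CD90+/CD133- cells for the leading genes. SOX7 averaged 1488, ANPEP 2981, CDH6 1196, FBN1 93.6 and CEACAM6 70.0 there, and the list of interferon genes stood as given above.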

How the data were processed

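Total RNA of the sorted fractions was measured on Affymetrix U133 Plus 2.0 arrays, which read each transcript with 1 or more probe sets. The deposited values are linear intensities, which the authors made comparable among arrays with a cross-correlation normalization. How probes were summarised, and why no value lies under 5, is not given in the sources used here. Of 54675 probe sets, 41097 carry 1 gene symbol, 1801 several and 11777 none. After control probe sets were left out, 41091 were used for 19775 genes, of which 10523 have several probe sets, and the brightest one was kept. Any intensity below 16 was replaced by 16 before the log2 scale was used.

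The comparison used lmFit and eBayes of limma (version 3.58.1, R version 4.3.3), with the replicate number as a block (p-values adjusted by Benjamini-Hochberg over all genes). Steps were tested on simulated data. Tables and plots were made with python 3.11.15, numpy 2.4.6, pandas 2.3.3 and matplotlib 3.10.9. The pairing was taken from codes that same-numbered arrays share in the labels, replicates 4 and 5 having 1 code in common. Deviations from the group means of 10010 genes of mean intensity 64 or more correlated within numbers 1 to 5 at 0.79, 0.40, 0.20, 0.46 and 0.64. The highest correlation with another number was 0.18 or 0.19 for numbers 2 to 5, so number 3 hardly exceeded a mismatch. The methods call these arrays biological replicates, and p-values measure only the spread between them. The number of arrays limits the precision; array medians ran from 29.9 to 32.4.

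Named genes are THY1 and PROM1, the 12 largest rises and 12 largest falls among robust calls with a mean log2 level of 6 or more in both fractions, up to 3 robust rises and 3 robust falls of each list, and the 2 brightest members of lists of other cell types. Genes named beyond this rule are said to be so or give an example of a list's probe or position. The genes, lists and rules were chosen with earlier results of these data known. Chromosome order and promoter windows come from RefSeq on GRCh38.p14. Alternatives were other floors, normalizations, probe choices and blocks, all 15 arrays in one fit, and leaving out each replicate. A gene list and a gene are not reported here.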

Additional observations from a re-analysis of the deposited data

Results flagged for a closer look

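Within each fraction, the 5 arrays of each named gene were compared by Dixon's ratio (critical value 0.71), and 32 of 398 groups held an array that stood apart from the other 4. Chance alone gives about 1 in 20 such groups where values are not cut at a floor. Here values under 16 were set to 16, so the 32 of 398 groups cannot be set against that share. All arrays that stood apart belong to replicates 1, 3 and 5. CD90+/CD133- replicate 1 was the highest of its fraction for ITGA4 at 21.54 (others 16 to 16.63), ITGA2 at 700.5 (others 313.3 to 378.4) and IGFBP2 at 21.16 (others 16 to 16.72). CD90+/CD133- replicate 1 was the lowest of its fraction for SPARC at 707.1 (others 1232 to 1493), MGST3 at 1250 (others 2010 to 2276), VDR at 213.1 (others 264.1 to 288) and HS2ST1 at 332.5 (others 474.3 to 515.3). CD90-/CD133- replicate 1 was the lowest of its fraction for EGFR at 1398 (others 2086 to 2358), SEMA3F at 417.4 (others 574.4 to 644.8), CDKN1B at 1303 (others 1681 to 1828), CRABP2 at 192.9 (others 538.9 to 722) and NDN at 1060 (others 1158 to 1200). CD90-/CD133- replicate 3 was the highest of its fraction for FLG at 23.37 (others all 16). CD90+/CD133- replicate 5 was the highest of its fraction for EMX2 at 24.53 (others all 16), SOX11 at 23.09 (others 16 to 17.23), KLF8 at 26.14 (others all 16), VEGFA at 1281 (others 462.4 to 602.8), MTF1 at 654.5 (others 365.1 to 416.2) and CDC42EP3 at 2280 (others 968.4 to 1129). CD90+/CD133- replicate 5 was the lowest of its fraction for CCNE1 at 94.32 (others 132.8 to 152.3), RPL11 at 7617 (others 7941 to 8021), PSMB6 at 1802 (others 2404 to 2668) and CD4 at 51.28 (others 58.07 to 60.72). CD90-/CD133- replicate 5 was the highest of its fraction for KLF8 at 73.62 (others 31.96 to 39.81). CD90-/CD133- replicate 5 was the lowest of its fraction for CNTN1 at 301.3 (others 1588 to 2142), ADAM9 at 1569 (others 1965 to 2154), MMP16 at 32.33 (others 63.7 to 78.25), TWIST1 at 96.68 (others 123.6 to 133.6), BCL2L1 at 259.4 (others 308.7 to 330.1), ARHGAP5 at 262.3 (others 308.9 to 328.6), PEG10 at 150.4 (others 302.7 to 391.4) and COL1A1 at 82.27 (others 116.6 to 129.4). The effect of leaving out each of these replicates is given with the results above and below, and what sets these arrays apart was not tested.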

How the results depend on the processing

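Leaving out 1 replicate at a time gave 1435 to 2145 genes higher and 1551 to 2363 genes lower in CD90+ cells, in place of 2366 and 2703. The lowest counts came without replicate 4. Without the replicate block there were 1789 and 1962, and 3415 genes were called with and without it. A t-test, which the methods name but not for the arrays, gave 1668 and 1805. All 15 arrays in one fit gave 2916 and 3491. PROM1 passed the threshold with a floor of 5 (log2 fold change 1.25, adjusted p = 0.0178) and, over the replicates left out, ranged from 0.56 to 1.12. The median of chromosome 10 (0.43) was 0.35 with the mean of probe sets and 0.38 with the specific probe set preferred, and that of chromosome 20 (-0.23) was -0.17 with the mean of probe sets. With the specific probe set, MCAM had -0.0662, PSMD4 0.0534 and MGST3 0.0522, each the opposite sign, and COL1A1 had 0.0477 with the mean of probe sets. ENG, an endothelial marker that was not called, ranged from -0.107 to 0.0542 and PECAM1 from -0.0027 to 0.17 over the replicates left out. Of 196 named genes with a value, median centring and quantile normalization moved none across the threshold, a floor of 64 lost 16 calls, the specific probe set 21, the mean of probe sets 6 and the label code as a block 6. Most of these genes were chosen because their calls held without the block and without each replicate, so those settings say nothing about their stability. The cause of these differences was not tested, except that a floor of 64 removes low values by construction. Probe sets near the floor give bounds only.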
